A study of Mus musculus with 6 samples.

Results

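The genes described here encode 6 ion channels of the muscle cell membrane. They were taken from the merged count table by gene name, 6 of 46078 genes listed: *Scn4a* (ENSMUSG00000001027), *Clcn1* (ENSMUSG00000029862), *Kcnj2* (ENSMUSG00000041695), *Kcnj12* (ENSMUSG00000042529), *Kcnh1* (ENSMUSG00000058248) and *Kcnn3* (ENSMUSG00000000794). All 6 had reads in every library, and 5 passed the filter on low counts, with *Kcnh1* left below it. Of these 5, *Kcnn3* was higher and *Kcnj2* was lower in *Hnrnpa2b1* KO cells than in WT cells, and the remaining 3 did not pass the test.

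RNA was sequenced from C2C12 cells, an immortalized mouse myoblast line that fuses into myotubes once serum is lowered. The WT and *Hnrnpa2b1* KO groups held 3 libraries each, KO1 to KO3 and WT1 to WT3, whose values are printed in that order, and all 6 cultures had differentiated for 2 days after serum withdrawal, with ITS (insulin, transferrin and selenium) added. The methods describe KO and WT clones picked after CRISPR-Cas9 editing and puromycin selection, without stating which clone gave each library, so the spread between libraries can include differences between clones. *Hnrnpa2b1* encodes an RNA-binding protein of the hnRNP family. The labels name no separate cultures beyond the replicate numbers, and the p-values set the KO and WT difference against the spread between these libraries.

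A skeletal muscle fiber fires an action potential through a voltage-gated sodium channel, and a high resting chloride conductance together with inward-rectifier potassium channels holds the membrane near its resting potential. Myoblasts start from a more depolarized potential and hyperpolarize as they commit to differentiation, a step in which an EAG channel and Kir2.1 take part before fusion. SK3, a calcium-activated potassium channel, is known from immature and denervated muscle and declines with innervation.

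To show where the readouts of the 3 genes with separated KO and WT libraries begin, the 250 bases upstream of the RefSeq start site of *Kcnj2*, *Kcnn3* and *Clcn1* are given 5′ to 3′ on the gene's own strand, from RefSeq promoters on GRCm38.p6. Capitals mark matches to the E-box CANNTG, the motif of MyoD and myogenin and of many other basic helix-loop-helix factors, or to the MEF2 motif, searched on both strands. All 6 genes had a promoter entry.
Kcnj2 (chr11:111065914-111066163, + strand): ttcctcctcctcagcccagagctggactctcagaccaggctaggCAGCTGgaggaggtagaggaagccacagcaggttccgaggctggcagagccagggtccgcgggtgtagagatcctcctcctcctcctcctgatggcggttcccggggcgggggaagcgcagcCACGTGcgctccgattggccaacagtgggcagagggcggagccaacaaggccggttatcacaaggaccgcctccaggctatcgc
Kcnn3 (chr3:89519914-89520163, + strand): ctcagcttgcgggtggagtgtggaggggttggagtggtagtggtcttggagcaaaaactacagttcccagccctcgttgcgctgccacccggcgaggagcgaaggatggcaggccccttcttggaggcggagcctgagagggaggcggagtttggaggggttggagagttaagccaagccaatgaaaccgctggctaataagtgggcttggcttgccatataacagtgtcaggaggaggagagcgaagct
Clcn1 (chr6:42286435-42286684, + strand): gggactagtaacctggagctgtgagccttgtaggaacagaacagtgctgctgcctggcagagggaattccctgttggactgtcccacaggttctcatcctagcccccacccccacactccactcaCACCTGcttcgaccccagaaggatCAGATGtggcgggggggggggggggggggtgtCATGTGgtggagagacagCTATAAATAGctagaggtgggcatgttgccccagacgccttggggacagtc

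The *Kcnj2* window held 2 E-boxes, CAGCTG at −206 and CACGTG at −84 relative to the start site. The *Clcn1* window held 3 E-boxes, CACCTG at −125, CAGATG at −101 and CATGTG at −69, and a MEF2 match, CTATAAATAG, from −51 to −42. No E-box or MEF2 match was found in the *Kcnn3* window. *Kcnj12* had 1 E-box, CACCTG at −240, and the *Scn4a* and *Kcnh1* windows had neither motif, although the RefSeq start used for *Scn4a* lies 3898 bases and that for *Kcnj12* 43240 bases from the annotated 5′ end of the gene. Among 32851 promoter windows of the same length, 66.2% held a CANNTG, 13% the form CAGCTG, which is also counted as CANNTG, and 2.92% a MEF2 match, so an E-box is common in any window of this size. A match describes these letters alone.

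Between 33605258 and 40558740 reads were counted per library. In edgeR's quasi-likelihood test of KO over WT, 14828 genes were tested and 22.7% had an adjusted p under 0.05, 12.1% higher and 10.6% lower in KO. The median log2 fold change of all tested genes was 0.03, and 0.15 with library totals alone in place of TMM scaling (trimmed mean of M-values, which corrects for composition). RNA of the targeted gene did not separate the genotypes, with *Hnrnpa2b1* at 159, 195 and 249 CPM (reads scaled to a common library size with TMM) in KO and 225, 229 and 252 in WT, so these values do not check the labels. An edit need not lower the RNA, and the methods describe a check of the protein in the clones by immunofluorescence and Western blotting, which is not analysed here. KO1 stood apart from KO2 and KO3 in summed muscle genes: the summed CPM of 13 differentiated muscle markers reached 22069 for KO1 but 8904 for KO2 and 8320 for KO3, with 15223 to 20031 for WT. Single markers differed. In KO1, *Acta1* was above the WT range (7023 CPM against 2958 to 4188). *Myh3* (4146 against 4474 to 5811), *Myh8* and *Actc1* were below it in KO1, and the others lay above or within it. KO2 and KO3 were not below WT in every marker, with *Myog* in KO2 at 1532 CPM against 1244 to 1464 in WT. The main fold changes are therefore also given without KO1 where that changes a call, a direction or the size by over 1.5 times.

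*Scn4a* encodes Nav1.4, the sodium channel that carries the action potential of skeletal muscle, and lies at chr11:106318592-106353288 on the minus strand (GRCm38, 26 exonic stretches). Its CPM were 42.6, 7.74 and 8.37 in KO and 43, 23.3 and 45.9 in WT. KO1 thus sat among the WT libraries while KO2 and KO3 lay below all of them, and the highest KO library was 5.51 times the lowest. The means were 19.6 ± 20 in KO and 37.4 ± 12.3 in WT (SD, n = 3 each). The log2 fold change was −0.94 (SE 0.64, adjusted p = 0.316, edgeR), which did not pass the test. Without KO1 it was −2.22 (SE 0.30, adjusted p = 0.00154, edgeR) and passed. TPM (transcript abundance relative to all transcripts, corrected for length) were 7.05, 1.51 and 2.21 in KO against 7.52, 4.72 and 7.15 in WT, with KO1 again within the WT range and KO2 and KO3 below it. The pattern followed the summed muscle markers given above, in which KO1 was also the only KO library not below the WT range. Not every single marker shared it, and the part of differentiation state in the *Scn4a* pattern was not tested. In bulk RNA, fewer cells of a type and less RNA per cell cannot be told apart.

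**Figure D1:**
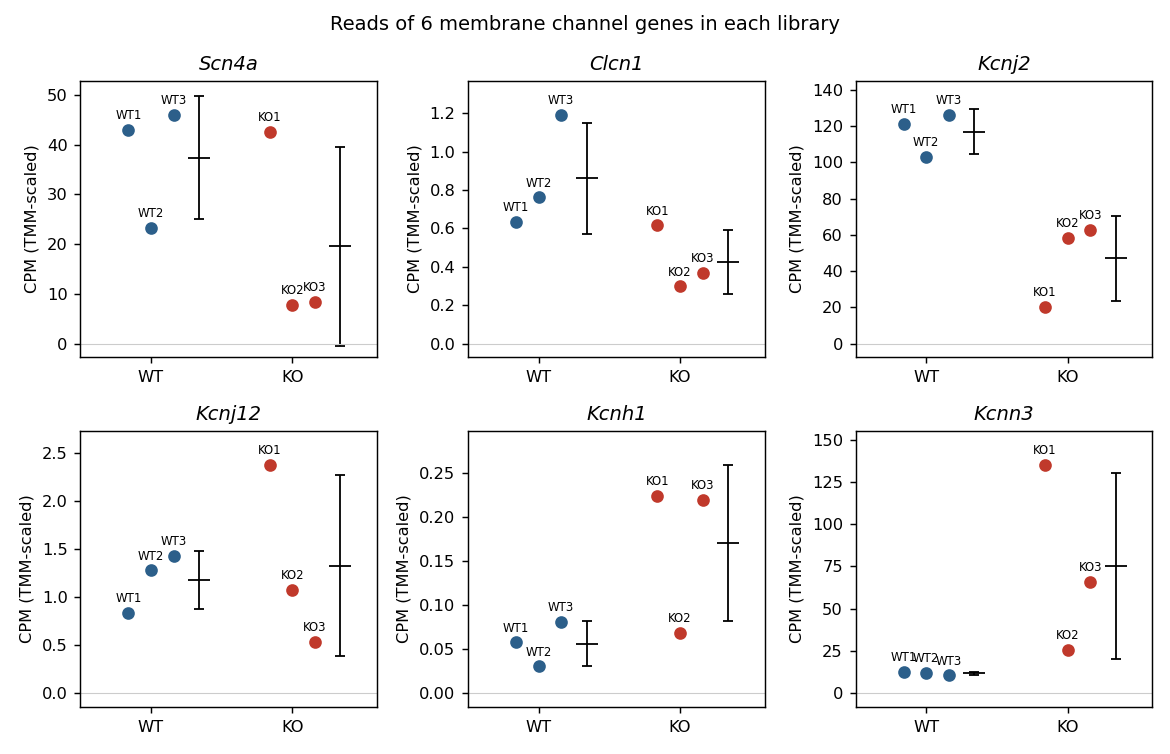
Reads of each channel gene in CPM (TMM-scaled, linear axes starting near 0), with 1 point per library and bars for the mean ± SD of 3 libraries. *Kcnn3* lies at 25.7 or above in every KO library and at 12.4 or below in every WT library, *Kcnj2* is separated the other way, and KO1 sits with WT in *Scn4a*.

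*Clcn1* encodes ClC-1, the chloride channel that stabilizes the resting potential of muscle and whose loss causes myotonia. It lies at chr6:42286685-42315756 on the plus strand. Few reads fell on it, 22, 13 and 15 in KO and 22, 25 and 44 in WT. As CPM these were 0.616, 0.298 and 0.366 in KO and 0.636, 0.762 and 1.19 in WT. All KO libraries were below all WT libraries, but KO1 and WT1 were nearly equal, with the lowest WT library 1.03 times the highest KO library. The log2 fold change of −1.02 (SE 0.44, unadjusted p = 0.0483, adjusted p = 0.125, edgeR) did not pass the adjusted threshold, and it lay between −1.38 and −0.75 with each library left out. TPM separated the groups more widely, 0.0692, 0.0351 and 0.0615 in KO against 0.111, 0.149 and 0.15 in WT, at levels below the TPM filter. *Fam131b* overlaps the end of *Clcn1* on the opposite strand, and 5.76% of the 100-base stretches of *Clcn1* transcripts also lie in it. Since the strand setting of the counting is not given in the sources used here, some of these reads cannot be assigned with certainty, and *Fam131b* itself had 400, 676 and 484 reads in KO and 251, 400 and 243 in WT.

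*Kcnj2* encodes Kir2.1, the inward rectifier that hyperpolarizes myoblasts on the way to fusion and whose mutation causes Andersen-Tawil syndrome. It spans chr11:111066164-111076821 on the plus strand in 2 exonic stretches. It had 20.1, 58.4 and 62.9 CPM in KO and 121, 103 and 126 in WT. No KO library reached the WT range, and the lowest WT library was 1.64 times the highest KO library. Here KO1 was the lowest of the KO libraries, unlike in *Scn4a*. The WT mean of 117 ± 12.2 was 2.48 times the KO mean of 47.1 ± 23.5 (SD, n = 3 each), with a log2 fold change of −1.31 (SE 0.38, adjusted p = 0.0419, edgeR). TPM were 2.25, 6.93 and 8.87 in KO and 15.3, 13.4 and 14.7 in WT, a log2(TPM + 1) difference of −1.28 (SE 0.36, adjusted p = 0.0361, limma). The WT spread was narrow in both measures. The call was close to the threshold: it was lost without KO2, KO3, WT1, WT2 or WT3 (adjusted p from 0.0548 to 0.121, edgeR), with log2 fold changes of −1.57 to −1.27 that were close to the value from all 6 libraries, and with library totals alone (log2 fold change −1.17, adjusted p = 0.0637), while without KO1 the difference was smaller and less variable (−0.95, SE 0.15, adjusted p = 0.00277).

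*Kcnj12* encodes Kir2.2, a close relative of Kir2.1, and lies at chr11:61022564-61071131 on the plus strand. Its CPM were 2.38, 1.08 and 0.537 in KO and 0.839, 1.28 and 1.43 in WT. The KO libraries held both the highest and the lowest value of all 6, and the WT libraries lay between them. The means were 1.33 ± 0.947 and 1.18 ± 0.307 (SD, n = 3 each), and the log2 fold change of 0.16 (SE 0.54, adjusted p = 0.845, edgeR) had no stable direction, being −0.55 without KO1 and −0.04 without WT1. No stretch of 100 bases in *Kcnj2* or *Kcnj12* transcripts was shared with another annotated gene.

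Per length, *Kcnj2* exceeded *Kcnj12* in every library. The ratio of their TPM was 3.61, 22.9 and 58.1 in KO and 61.3, 32.8 and 34.7 in WT. KO1 stood below all other libraries, whereas KO3 lay among the WT libraries. The mean log2 ratio was 4.08 ± 2.04 in KO and 5.36 ± 0.50 in WT (SD, n = 3 each), a difference of −1.29 with overlapping groups (exact two-sided permutation test, p = 0.4, which cannot go below 0.1 with 3 against 3 and so cannot pass 0.05). The difference rested on KO1: it was −0.18 without KO1 and −2.18 without KO3.

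*Kcnh1* encodes the EAG channel Kv10.1, a voltage-gated potassium channel active early in myoblast differentiation. It lies at chr1:192190774-192510159 on the plus strand. Its counts were 8, 3 and 9 in KO and 2, 1 and 3 in WT, too few for the main genome-wide test. Summed over libraries these were 20 reads against 6, a ratio of 2.89 after scaling to TMM-scaled library sizes. Its 95% exact counting interval was 1.12 to 8.81, which covers counting error only. KO2 and WT3 had equal counts of 3, and the CPM ranges of the groups overlapped (0.0687 to 0.224 in KO, 0.0305 to 0.0809 in WT). An exact two-sided permutation test over libraries gave p = 0.2. In TPM, *Kcnh1* was listed at 0 in KO2 and in all WT libraries, and at 0.0208 in KO1 and 0.0219 in KO3. *Hhat*, on the opposite strand, overlaps an exon of *Kcnh1* and had 156 to 503 reads per library. None of the 7426 stretches of 100 bases in *Kcnh1* transcripts was shared with another annotated gene, but single reads could still belong to either gene.

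*Kcnn3* encodes SK3, which calcium opens and which shapes the afterhyperpolarization of immature muscle. It spans chr3:89520164-89675132 on the plus strand. Its CPM were 135, 25.7 and 65.6 in KO and 12.4, 12.1 and 10.5 in WT. The WT libraries were nearly alike, the KO libraries differed from each other by up to 5.23 times, and the lowest KO library was 2.08 times the highest WT library. The KO mean of 75.3 ± 55 was 6.46 times the WT mean of 11.7 ± 1 (SD, n = 3 each). The log2 fold change was 2.69 (SE 0.52, adjusted p = 0.0117, edgeR). TPM were 15.9, 3.49 and 9.74 in KO and 1.96, 1.8 and 1.45 in WT, a log2(TPM + 1) difference of 1.78 (SE 0.40, adjusted p = 0.0179, limma). Without KO1, the highest library, the log2 fold change was 1.96 (SE 0.33, adjusted p = 0.00407, edgeR). The adjusted p was above 0.05 without WT1 (0.0579) or WT3 (0.0571), with log2 fold changes of 2.73 and 2.59. Since SK3 is also a neuronal channel, neuron markers are given beside it: *Stmn2* rose (log2 fold change 1.96, SE 0.54, adjusted p = 0.0367, edgeR) and *Syt1* fell (−2.14, SE 0.58, adjusted p = 0.035), *Rbfox3* had a single read and *Snap25* 5 reads in all libraries, and the summed CPM of 8 markers was 7.3 to 24.9 in KO and 3.18 to 7.89 in WT. Most of that sum was *Stmn2* alone, at 23.6, 16.2 and 6.37 CPM in KO and 2.1 to 6.43 in WT, so its groups overlapped.

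**Figure D2:**
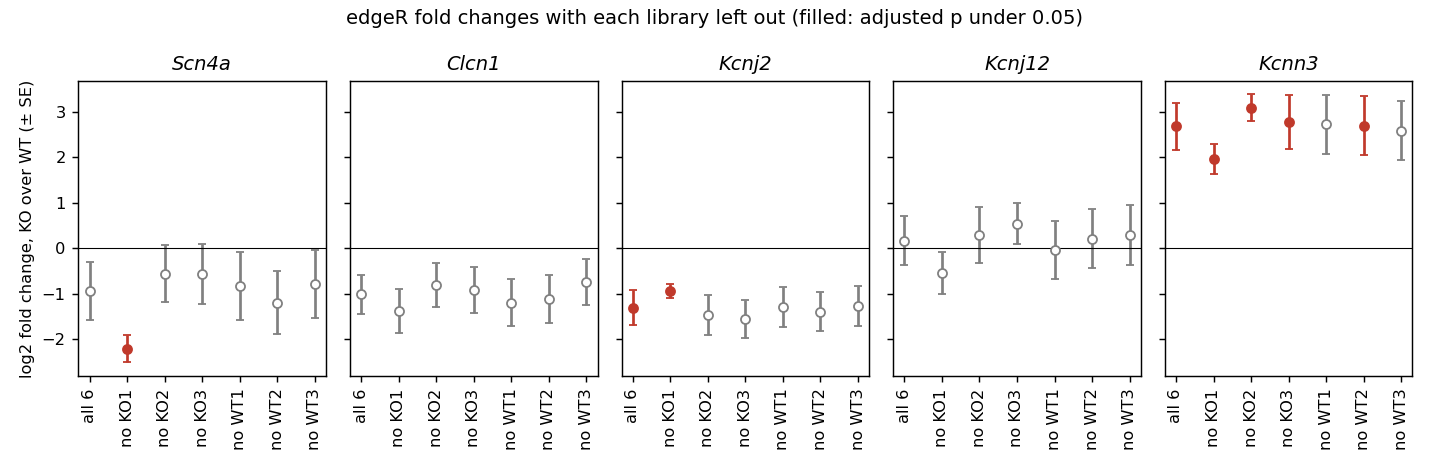
Log2 fold change of KO over WT ± SE in edgeR for the 5 tested genes, with all 6 libraries and with each library left out. Filled points have an adjusted p under 0.05. *Scn4a* moves from −0.94 to −2.22 when KO1 is left out, *Kcnj12* changes sign, and *Kcnn3* stays between 1.96 and 3.10.

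Thus 2 of the 5 tested channel genes passed the test, 1 in each direction, beside 22.7% of all tested genes in either direction. The KO and WT libraries did not overlap in 3 of the 5, *Clcn1*, *Kcnj2* and *Kcnn3*, beside 44.3% of all tested genes. In TPM, 3 of the 6 passed the filter and *Kcnj2* and *Kcnn3* were called, where 20.5% of 11691 genes were called.

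The 3 KO libraries differed among themselves in a gene-dependent way. Relative to the WT mean on the log2 scale, KO1, KO2 and KO3 stood at 0.25, −2.20 and −2.09 for *Scn4a* and at 3.53, 1.14 and 2.49 for *Kcnn3*. For *Kcnj2* they stood at −2.53, −0.99 and −0.88, so KO1 deviated most in *Kcnj2* and *Kcnn3* and least in *Scn4a*. For *Clcn1* the deviations were −0.41, −1.34 and −1.08, the same order as in *Scn4a*. Across all 6 libraries, Pearson's r of log2 CPM was 0.85 between *Scn4a* and *Clcn1* and −0.93 between *Kcnj2* and *Kcnn3*, as a description of 6 points that share library and genotype.

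Comparing levels between genes per length in TPM, WT libraries ranked *Kcnj2* first (13.4 to 15.3), then *Scn4a* (4.72 to 7.52), *Kcnn3* (1.45 to 1.96), *Kcnj12* (0.249 to 0.422), *Clcn1* (0.111 to 0.15) and *Kcnh1* (listed at 0), with no overlap between neighbours. In KO the ranges of the leading 3 overlapped: *Kcnn3* 3.49 to 15.9, *Kcnj2* 2.25 to 8.87 and *Scn4a* 1.51 to 7.05. The summed TPM of the 6 genes came to 25.9, 12.3 and 21.1 in KO and 25.1, 20.5 and 23.8 in WT. *Kcnj2* took 60.8% to 65.4% of that sum in WT and 8.67%, 56.5% and 42.1% in KO. *Kcnn3* took 6.09% to 8.82% in WT and 61.4%, 28.4% and 46.3% in KO. *Scn4a* took 27.2%, 12.3% and 10.5% in KO against 23.1% to 30% in WT. *Kcnn3* was thus the largest share in KO1 and KO3, while *Kcnj2* remained the largest in KO2.

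**Figure D3:**
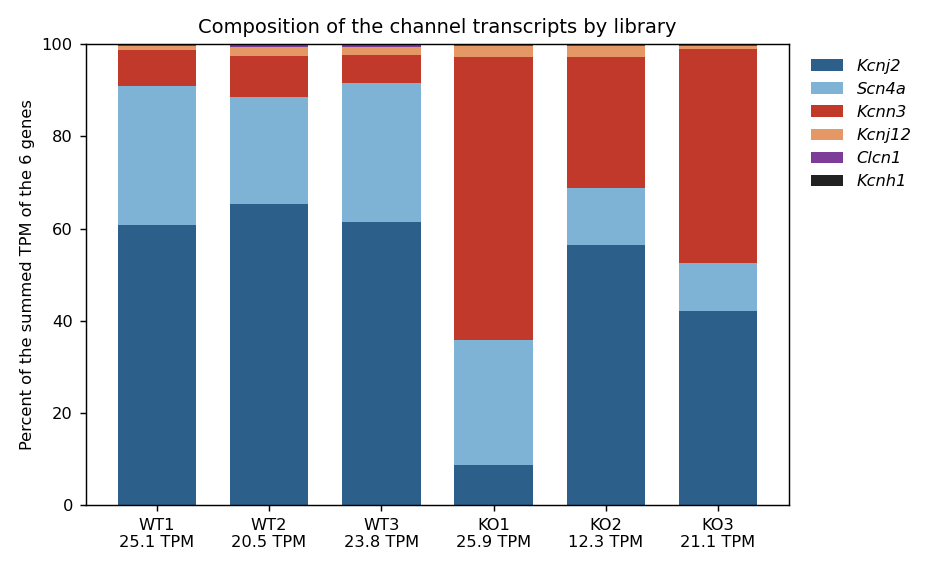
Percent of the summed TPM of the 6 channel genes taken by each gene in each library, with the sum in TPM below each bar. *Kcnj2* fills 60.8% to 65.4% of the WT bars, and *Kcnn3* fills 28.4% to 61.4% of the KO bars.

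*Kcnn3*, *Scn4a*, *Kcnj2* and *Clcn1* were also set within their own families, a comparison added after the values had been seen. *Kcnn3* made up 16.8%, 16.6% and 13.8% of the TPM of the 4 Kcnn genes in WT and 70.1%, 46% and 70.1% in KO. In WT, *Kcnn4*, the intermediate-conductance channel, was the most abundant at 6.23 to 6.58 TPM, followed by *Kcnn1* (SK1) at 2.79 to 3.15 TPM. In KO, *Kcnn4* was at 5.09, 2.59 and 3.04 TPM and *Kcnn1* at 1.7, 1.51 and 1.12, below every WT library for both genes. *Kcnn1* passed the test (log2 fold change −0.96, SE 0.24, adjusted p = 0.0274, edgeR) and *Kcnn4* did not (−0.79, SE 0.29, adjusted p = 0.0858). The most abundant Kcnn transcript per length was therefore *Kcnn4* in all WT libraries and *Kcnn3* in all KO libraries.

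**Figure D4:**
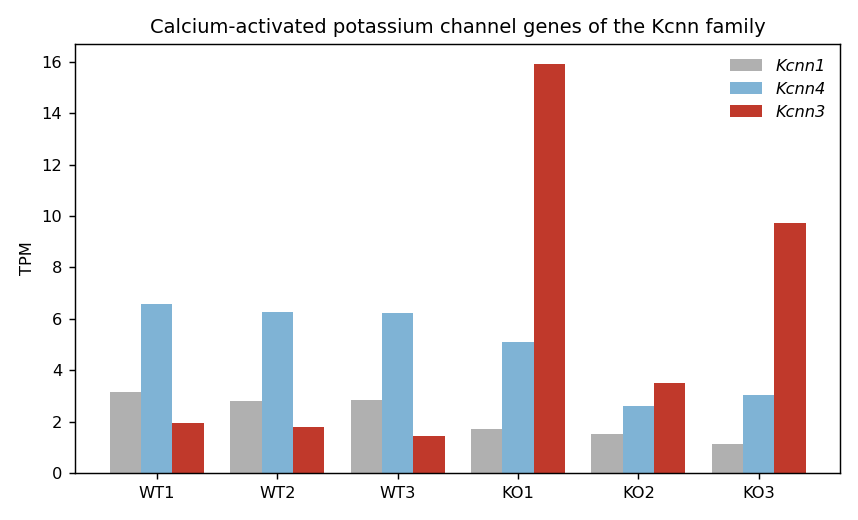
TPM of the Kcnn genes with the highest levels in each library, as bars starting at 0. *Kcnn3* stands at 3.49 to 15.9 TPM in KO, above *Kcnn4* and *Kcnn1* in each KO library, and at 1.45 to 1.96 TPM in WT, below both.

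*Scn4a* held 53.2%, 41.2% and 41.2% of the TPM of the 10 sodium channel alpha subunit genes in KO and 64.5%, 44.7% and 60.7% in WT, so the groups overlapped (exact two-sided permutation test, p = 0.2). *Kcnj2* held 73.8%, 93.4% and 95% of the TPM of 15 inward-rectifier genes in KO and 94.6% to 97.6% in WT (exact p = 0.2). *Clcn1* was a minor member of its family, with 0.0594% to 0.103% of the TPM of 9 CLC genes in KO and 0.208% to 0.268% in WT. Its share was lower in all KO libraries.

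Other channel, pump and anchoring genes were read from 9 lists. Of 125 genes listed, 60 were tested, 7 were higher and 11 lower in KO, and 42 did not pass, with a median log2 fold change of −0.04 beside 0.03 for all tested genes. These 18 calls of 60 stand beside the background of 22.7% over all tested genes, and nothing particular to the lists is read from them.

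Among 7 tested sodium channel subunits, *Scn10a* (Nav1.8, best known from sensory neurons) rose, at 4.25, 3.05 and 1.78 CPM in KO and 0.183 to 0.485 in WT (log2 fold change 3.18, SE 0.49, adjusted p = 0.00559, edgeR). *Scn2a* and *Scn3a*, brain-type alpha subunits, fell by 3.64 and 4.83 on the log2 scale, from levels of 0.884 to 1.75 CPM in WT. The median of the 7 was −1.20.

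Of 8 tested CLC genes, 2 rose and the others did not pass, with a median of 0.20. Among those that rose was *Clcn5*, an endosomal chloride-proton exchanger (0.55, SE 0.15, adjusted p = 0.0331, edgeR). Among inward-rectifier genes and their partners, 2 of 15 were tested, and *Abcc9*, the SUR2 subunit of KATP channels, fell. It stood at 59.1, 14.7 and 82.4 CPM in WT and at 4.25, 0.298 and 2.1 in KO (−4.57, SE 0.92, adjusted p = 0.0133, edgeR). Of 2 tested EAG-type genes, *Kcnh7* fell, with no reads in KO1 and KO2, 0.122 CPM in KO3 and 0.665 to 1.89 in WT. *Kcnh2* (ERG1) did not pass, at 8.93 to 15.1 CPM in KO and 7.17 to 9.17 in WT.

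Of 4 other calcium-activated potassium channel genes tested, *Kcnn1* fell, as given above. *Kcnn4*, *Kcnma1* and *Kcnt2* did not pass. Among 11 tested voltage-gated potassium channel genes, 1 rose and 1 fell. The gene that fell was *Kcna7*, a Kv1 gene of skeletal muscle and heart (−1.81, SE 0.46, adjusted p = 0.0288, edgeR). Of 4 tested K2P leak channels, *Kcnk13* (THIK-1) rose, from 0.578 to 1.35 CPM in WT to 4.7 to 7.63 in KO (2.59, SE 0.37, adjusted p = 0.00462).

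Among 10 tested sodium-potassium pump genes, 2 rose and 2 fell, with a median of −0.12. *Fxyd5*, a pump regulator, rose (1.44, SE 0.33, adjusted p = 0.021, edgeR), at 20.7, 9.94 and 19.4 CPM in KO and 4.34, 8.05 and 6.04 in WT. *Atp1b2*, a beta subunit, fell (−4.26, adjusted p = 0.00591) from 1.68 to 5.69 CPM to 0.122 to 0.42 CPM, and *Atp1a4*, the sperm-type alpha subunit, fell (−3.41, adjusted p = 0.00307) at no more than 1.04 CPM. Of 12 tested anchoring and turnover genes, 3 fell and the others did not pass. Those that fell included *Ank2* (−1.87, adjusted p = 0.0186, edgeR) and *Ank3*, ankyrin-G that clusters sodium channels (−1.15, adjusted p = 0.00981). The median of the 12 was −0.35.

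**Figure D5:**
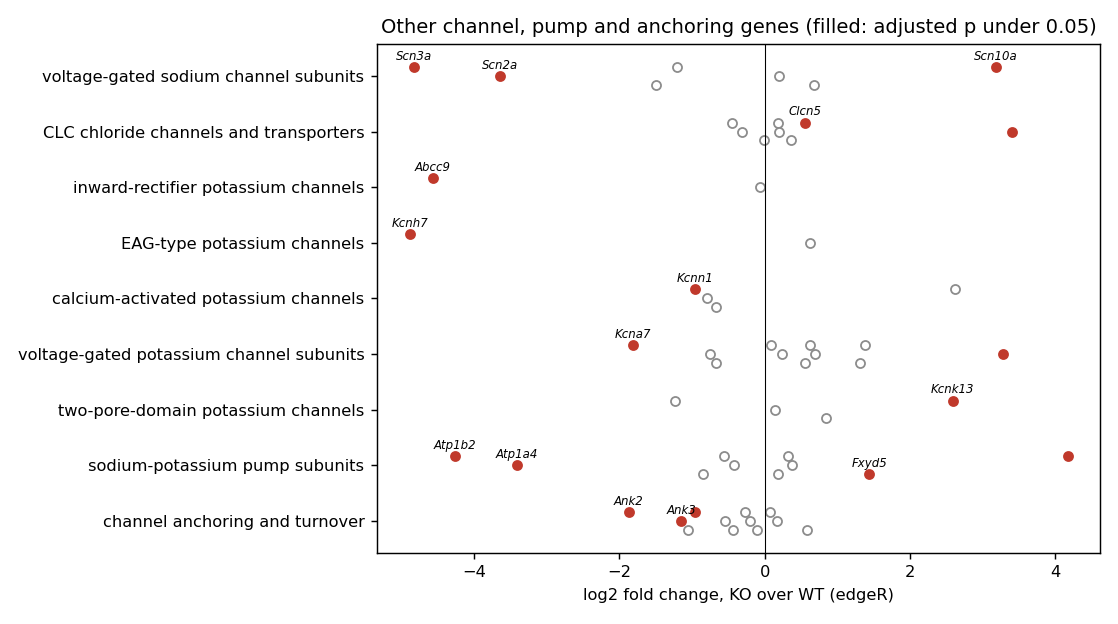
Log2 fold change of KO over WT (edgeR) of 60 tested channel, pump and anchoring genes in 9 lists, 1 point per gene. Filled points have an adjusted p under 0.05, with those described in the text named, 7 to the right of 0 and 11 to the left.

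The labelled cell type was checked against marker lists. Differentiated muscle markers were detected in all libraries. *Tnnc2* alone was below 1 CPM in each, at 0.275 to 0.636 CPM, although its TPM was 14 to 78.9. In the test 0 of 13 markers passed in edgeR (3 at an unadjusted p under 0.05), while DESeq2 called 2 lower and 0 higher. Their median log2 fold change was −0.35. Of 6 myoblast markers, *Pax7*, *Myod1*, *Cdh15* and *Sdc4* rose (log2 fold changes 1.52, 0.99, 0.70 and 0.92) and *Myf5* fell (−1.50), and their summed CPM was 1003 to 1103 in KO and 576 to 690 in WT. *Cdh15* was the largest part of these sums (539 to 661 CPM in KO, 318 to 424 in WT). The sums were higher in all KO libraries, as *Kcnn3* was, but the order within KO differed. KO1 had the lowest KO sum (1003, against 1103 in KO2 and 1066 in KO3) and the highest *Kcnn3* (135 CPM, against 25.7 and 65.6). The part of these markers in the *Kcnn3* difference was not tested. Of 4 tested cardiac markers 0 passed in edgeR, 2 had an unadjusted p under 0.05 and DESeq2 called 2 lower, and of 6 tested smooth muscle markers 0 passed by any of these measures. Summed fibroblast markers were at 5520 to 8792 CPM in KO and 3542 to 4678 in WT, and of 5 tested *Pdgfra* rose (1.17) and *Postn* fell (−2.57). Most of this sum was *Col3a1*, at 4949 to 8313 CPM in KO and 3423 to 4489 in WT, which did not pass (adjusted p = 0.132, edgeR). Endothelial, Schwann cell and immune markers summed to at most 4.06 CPM in any library, with *Mbp* rising (1.88) and *Kdr* falling (−2.15) at these low levels.

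The genes whose log2 CPM over the 6 libraries was most like each channel gene were named from at least 8964 candidates, with Pearson's r as a description. For *Scn4a* these were *Fabp3* (0.999), *Renbp* (0.999) and *Trim72* (0.999). For *Kcnj2* they were *Pelo* (0.999), *Fut10* (0.998) and *Tcaf2* (0.994), and for *Clcn1* they were *Hgsnat* (0.994), *Tmem194* (0.981) and *Plbd2* (0.971). For *Kcnn3* they were *Nol10* (0.986), *Myl2* (0.983) and *Itgb3* (0.982), and for *Kcnj12*, *Strada* (0.960), *Cbr4* (0.949) and *Jagn1* (0.947). With so many candidates and only 6 points, high values of r are easily found.

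Gene neighbourhoods were read as medians over fixed 10 Mb windows of the chromosome, in which a gene can lie near an edge, as *Kcnn3* does. In the window that holds *Kcnn3* the median log2 fold change of 111 genes was 0.14, against 2.69 for *Kcnn3* itself. The windows of *Kcnj2* (122 genes) and *Scn4a* (157 genes) had medians of 0.06 and 0.08. Those of *Clcn1*, *Kcnj12* and *Kcnh1* had medians of 0.05, −0.19 and 0.31.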

How the data were processed

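The data were bulk RNA libraries of C2C12 cells, 3 from *Hnrnpa2b1* KO and 3 from WT clones. The authors aligned reads with STAR and deposited raw read counts per gene, without normalization, and per the submitters' notes featureCounts and StringTie were used. StringTie TPM values, deposited by the authors in a file per library, served as second measure, summed where a gene identifier repeated. All count columns were used and 0 were left unused. The notes name mm9 and the methods GRCm39, whereas the deposited coordinates of all 6 genes equal GENCODE M21 on GRCm38, so positions are on GRCm38. Use of strand is not given in the sources used here.

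The channel genes and lists were chosen with earlier results of these data known. Of 46078 genes listed, 30252 had a count and 14828 passed edgeR's filterByExpr. TMM factors (0.949 to 1.08) scaled the counts, and edgeR's quasi-likelihood test, two-sided, compared the genotypes. P-values were adjusted over all tested genes after Benjamini and Hochberg, with a threshold of 0.05, and 5781 genes were under an unadjusted 0.05. TPM were tested with limma on log2(TPM + 1) where at least 3 libraries reached a TPM of 1, and differences of low genes are understated on that scale. Text names were the 6 channel genes, list genes past the threshold (the 4 largest where more passed), and the 3 genes most like each tested channel gene by Pearson's r of log2 CPM, among genes averaging 3 or more on that scale and bearing no predicted-gene name. *Kcnn4*, *Kcnma1*, *Kcnt2*, *Kcnh2*, the markers and the overlapping genes were named after their values were seen. Some list genes, counted in the totals, are not reported here by name. The software was edgeR 4.0.16, limma 3.58.1 and DESeq2 1.42.0 in R 4.3.3, and the steps were tested on simulated data. Alternatives covered tool, scaling, filter, input, pseudocount (0.1 in place of 1), pairing and leaving out each library.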

Additional observations from a re-analysis of the deposited data

How the results depend on the processing

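*Kcnn3* was higher and *Kcnj2* lower in KO under each alternative run on counts, with log2 fold changes of 1.96 to 3.10 and −1.57 to −0.95, and in limma on log2(TPM + 1), with differences of 1.78 and −1.28. With library totals alone 1 channel gene was called in place of 2, since *Kcnj2* was at −1.17 (adjusted p = 0.0637, edgeR). With no filter on low counts *Scn4a* passed at −0.96, and 33 of 120 list genes were called (4538 of 30252 genes in all) in place of 18 of 60 (3361 of 14828). DESeq2 called 28 of 71 list genes (4161 of 17114), and in it *Kcnj2* (adjusted p = 0.00149) and *Kcnn3* (adjusted p = 2.39e-08) both passed. In limma with no filter on TPM, 1075 genes were called in place of 2394, and neither *Kcnj2* (−1.28) nor *Kcnn3* (1.78) passed. The cause was not tested.

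Leaving out each library in turn gave 933 to 4712 called genes of edgeR (933 without WT1), 0 to 3 called channel genes (0 without WT1 or WT3) and 8 to 30 called list genes. Log2 fold changes were −2.22 to −0.56 for *Scn4a*, −1.57 to −0.95 for *Kcnj2*, −0.55 to 0.54 for *Kcnj12* and 1.96 to 3.10 for *Kcnn3*. For *Clcn1* no alternative passed (−1.38 to −0.75). On log2(TPM + 1), 484 to 3156 genes were called, with −1.37 to −0.53 for *Scn4a*, −1.60 to −0.80 for *Kcnj2* and 1.35 to 2.30 for *Kcnn3*, where *Kcnj2* lost its call without WT1, WT2 or WT3 and *Kcnn3* without KO3, WT1 or WT3. The log2 ratio of *Kcnj2* to *Kcnj12* differed by −2.18 to −0.18.

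The replicate numbers were not shown to pair the samples: same-numbered KO and WT libraries correlated at 0.14, −0.12 and 0.00 in their deviations. With the replicate number as a block, 2520 genes were called by edgeR, *Kcnj12* turned to −0.04 and, on log2(TPM + 1), *Scn4a* passed at −0.87 (adjusted p = 0.0345, limma). No other channel gene changed its call. The depth of *Kcnh1*, 1 to 9 reads per library, was too low for the main edgeR test. DESeq2 and edgeR with no filter on low counts tested all 6 channel genes, and neither called *Kcnh1*.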
